A study of Homo sapiens with 28 samples.

Results

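Expression was compared between both CHD4 short hairpin RNAs of the study, shCHD4#1 and shCHD4#2, 24 h after their induction. The comparison holds 6 of the 28 libraries, 3 with each hairpin, chosen by their titles and paired by replicate number. All 6 came from SK-N-MC, an established line of Ewing sarcoma, and carry the genotype label CHD4 knockdown. Every culture received doxycycline at 100 ng/ml to switch on its hairpin, including the 5 shScramble control libraries of the same time, which carry a hairpin with no named target and the genotype label wildtype. The same hairpins at 48 h, again 3 libraries each, serve as separate libraries. The labels call the samples biological replicates but do not say whether cultures were independent or shared between times. P-values therefore measure the spread between these samples. A hairpin and the cell population that carries it cannot be told apart, and in bulk RNA a change in the number of cells of a kind cannot be told apart from a change in RNA per cell.

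CHD4 is an ATPase subunit of NuRD, a complex that joins nucleosome remodelling to histone deacetylation and represses many genes. Short hairpins are processed by Dicer, and the guide strand then directs Argonaute proteins to transcripts that pair with it. Pairing of the guide's seed, its bases 2 to 8, with a 3′ UTR is a known way in which a hairpin also lowers transcripts that it was not designed for. In Ewing sarcoma the fusion protein EWS-FLI1 drives or represses a large set of targets, and NuRD has been studied there as a partner of the fusion.

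CHD4 (ENSG00000111642, GRCh38 chr12:6570082-6614524, minus strand) was low with both hairpins and differed between them by less than the spread between replicates. Its normalised counts were 2747, 2996 and 3226 in replicates 1, 2 and 3 with shCHD4#1. With shCHD4#2 they were 2785, 2975 and 3465. The values of both hairpins overlapped, and all lay far below the shScramble libraries, which ran from 10099 to 12879 with a median of 12037. The difference, shCHD4#1 minus shCHD4#2, was -0.04 on the log2(normalised count + 1) scale used for every difference here (SE 0.06, limma adjusted p = 0.65). Its 95% interval ran from -0.17 to 0.09, so CHD4 with shCHD4#1 lay between 89.2% and 106% of its level with shCHD4#2. An exact two-sided permutation test gave p = 0.8, where 3 against 3 libraries cannot go below 0.1. Mean CHD4 was 25.9% of the shScramble mean with shCHD4#1 and 26.6% with shCHD4#2. At 48 h CHD4 was slightly higher with shCHD4#1 (log2 0.21, SE 0.07, limma adjusted p = 0.0485, exact permutation p = 0.1).

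Many other transcripts differed between the hairpins. Of 20540 genes with a mean normalised count of at least 10, 3635 were higher and 3705 lower with shCHD4#1 at an adjusted p under 0.05, which is 17.7% and 18.0% of the genes tested (limma-trend on the 3 pairs, Benjamini-Hochberg adjustment). Most differences were small: 550 genes (2.68%) were at least 2-fold higher and 299 (1.46%) at least 2-fold lower. In 3039 genes all 3 shCHD4#1 values lay above all 3 shCHD4#2 values (14.8%), and in 3034 genes all lay below (14.8%), together 29.6% of the genes tested. The number of genes past the test rests on the pairing. Without it 846 genes were higher and 541 lower, and without the pair of replicate 3 the numbers were 1983 and 1657. No gene that passed had the opposite sign under any alternative in which it was tested. Alternatives that change only the block, the groups in the fit, the filter or the prior leave the difference itself as it was. Its sign could therefore not change in those, and the fits without a pair use the remaining pairs again.

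The 6 libraries held 49724797 to 62741657 reads, so depth differed little. Replicate 3 of both hairpins stood apart from replicates 1 and 2. Reads of processed pseudogenes were 0.256 to 0.275% of its libraries, against 0.337 to 0.375% of the others. This library kind is balanced between the hairpins. Ewing sarcoma markers (CD99, NKX2-2, NR0B1, STEAP1, PRKCB, LIPI, CCK, FLI1) were all present, and their summed counts ran from 44679 to 52684 with shCHD4#1 and from 39477 to 45253 with shCHD4#2. The blood markers summed to between 55.3 and 126 in all 6, and CD3E, CD14 and LYZ were under 10 in every library of both hairpins.

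The 12 genes with the largest difference in each direction are named here, among genes past the test whose hairpins did not overlap and whose higher group had a mean of at least 100. Of the 12 higher with shCHD4#1, 6 had all shCHD4#2 values outside the range of the 5 shScramble libraries and shCHD4#1 values not all outside it, 1 the reverse, and 5 had the hairpins on opposite sides of it. Of the 12 lower, 7 had shCHD4#1 alone outside the range, 1 had shCHD4#2 alone and 2 had the hairpins on opposite sides. SET, a histone chaperone and inhibitor of the phosphatase PP2A (chr9:128683424-128696400, plus strand), held 41548, 39820 and 47106 counts with shCHD4#1 and 10846, 6966 and 10352 with shCHD4#2. The shScramble libraries ran from 32162 to 61841 with a median of 45421. The shCHD4#1 values all lay inside that range, and the shCHD4#2 values all lay below it. The hairpin difference was 2.21 (SE 0.09, limma adjusted p = 8.1e-07). The processed pseudogene SETP14 followed with 2.47, and its reads may belong to SET, since the treatment of shared reads is not given. NPM1P27, a pseudogene of the nucleolar chaperone gene NPM1, differed by 2.09 with the same uncertainty.

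FTH1, the heavy chain of ferritin that stores iron (chr11:61959718-61967660, minus strand), showed the reverse arrangement and had the smallest adjusted p of the named genes. It held 2582, 1981 and 2621 counts with shCHD4#1, 12640, 9286 and 12327 with shCHD4#2, and 11008 to 19487 with shScramble, median 12990. The shCHD4#1 values lay far below all others, and the shCHD4#2 values began just under the control range. The difference was -2.25 (SE 0.05, limma adjusted p = 1.78e-08).

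TP53INP1, a p53 target that promotes cell death and autophagy (chr8:94925972-94949411, minus strand), had the largest difference of the named genes, 2.95 (SE 0.13, limma adjusted p = 9.47e-07). Its counts were 1247, 2099 and 1799 with shCHD4#1 and 221, 235 and 193 with shCHD4#2. The shScramble libraries ran from 274 to 533, so the hairpins lay on opposite sides of the control. CD24, a cell surface glycoprotein, was likewise split, with 1653, 1768 and 1877 counts against 332, 265 and 381, and a control range of 825 to 1220 (difference 2.45). MYCN, a MYC family transcription factor (chr2:15940564-15947007, plus strand), held 193, 218 and 196 counts with shCHD4#1 and 53.1, 33.3 and 38.5 with shCHD4#2. The controls ran from 111 to 159, again between the hairpins (difference 2.28, SE 0.18, limma adjusted p = 2.61e-05).

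In the other direction GNG12, a gamma subunit of heterotrimeric G proteins (chr1:67701466-67833467, minus strand), was counted at 29.5, 20.7 and 22.8 with shCHD4#1 and at 121, 122 and 124 with shCHD4#2. The controls ran from 42.1 to 49.6 and lay between the hairpins (difference -2.30, SE 0.19, limma adjusted p = 3.16e-05). CCN2, a matricellular protein and a well known target of YAP (chr6:131948176-131951373, minus strand), held 136, 81.2 and 140 counts against 398, 442 and 710, with controls from 274 to 396 (difference -2.10). Its relative CCN1, also a YAP target (chr1:85580761-85583962, plus strand), held 283, 266 and 292 counts against 662, 1165 and 1148 (difference -1.77). The CCN1 controls spread from 336 to 878, wider than for CCN2. Both CCN genes were therefore lower with shCHD4#1 than in any control library, while only for CCN2 did all shCHD4#2 values exceed all controls.

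**Figure D1:**
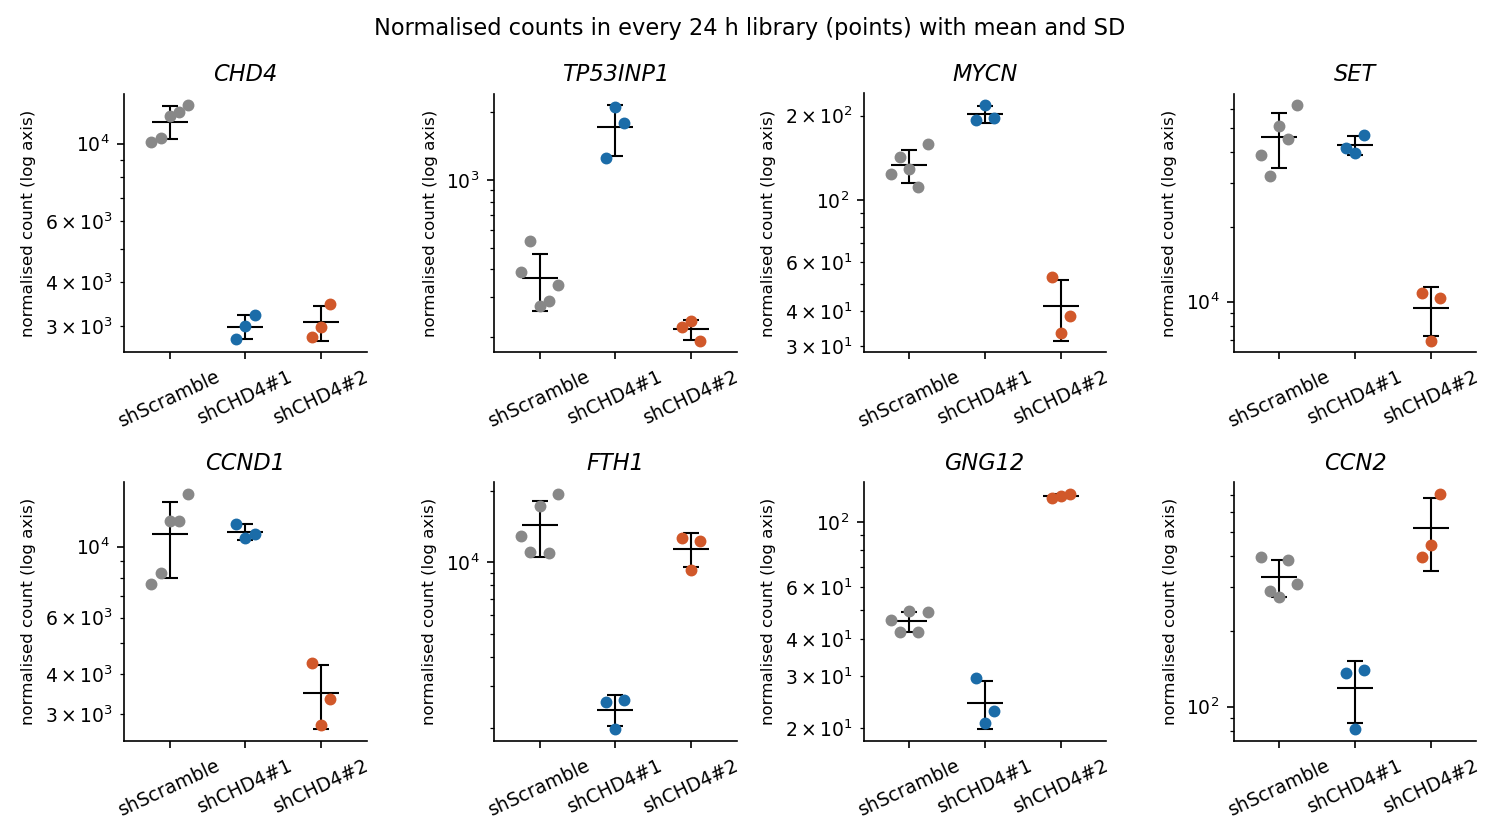
Normalised counts of 8 genes in every 24 h library of shScramble (grey, n = 5), shCHD4#1 (blue, n = 3) and shCHD4#2 (orange, n = 3), on log axes, with the mean as a long bar and the SD as error bar. CHD4 is low with both hairpins, while SET and CCND1 are low with shCHD4#2 alone and FTH1 is low with shCHD4#1 alone.

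Of 197 genes at least 2-fold higher with shCHD4#1 and with a mean of at least 100 in the higher group, 95 had all shCHD4#2 values below the control range and shCHD4#1 values not all outside it. Another 47 had all shCHD4#1 values above the range and shCHD4#2 values not all outside it, and 22 had the hairpins on opposite sides. Of 115 genes at least 2-fold lower, 47 had shCHD4#1 alone below the range, 29 had shCHD4#2 alone above it and 7 had the hairpins on opposite sides. Both hairpins lay on the same side of the range in 9 of the 197 and 4 of the 115 genes. Of all 20540 genes, 2403 (11.7%) had shCHD4#1 alone outside the range, 2145 (10.4%) had shCHD4#2 alone, 119 (0.579%) had the hairpins on opposite sides and 1232 (6%) had both on the same side. These sets were chosen for their difference between the hairpins, so the counts describe the sets and carry no test.

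Each hairpin was also compared with shScramble, in a fit of 11 libraries with library kind as a term. With shCHD4#1 4496 genes (21.9%) passed, 2013 higher (9.80%) and 2483 lower (12.1%), and with shCHD4#2 4718 genes (23.0%) passed, 2016 higher (9.81%) and 2702 lower (13.2%). Without the library kind the numbers were 913 and 985 with shCHD4#1, and 648 and 1156 with shCHD4#2. These comparisons share their control libraries and use the hairpin libraries again, so their values are only set side by side with the hairpin difference. For SET the change was 0.04 with shCHD4#1 and -2.18 with shCHD4#2. For FTH1 the changes were -2.48 and -0.23, and for TP53INP1 2.15 and -0.80.

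The 48 h libraries, which played no part in choosing the 24 h genes, showed most of the same differences. At 48 h 10503 of the 20540 genes (51.1%) passed, 5329 higher (25.9%) and 5174 lower (25.2%). Of the 3635 genes higher at 24 h, 3059 (84.2%) passed in the same direction at 48 h and 17 in the opposite one. Of the 3705 lower genes, 2987 (80.6%) passed in the same direction and 10 in the opposite one. Among genes at least 2-fold apart at 24 h, 490 of 550 and 259 of 299 passed in the same direction and 0 passed in the opposite one (limma-trend on the 3 pairs). The median difference of the 550 was 1.28 at 24 h and 1.78 at 48 h, and that of the 299 was -1.24 and -1.67. Across the 20540 genes the differences at both times correlated with a Pearson r of 0.801, given as a description, since genes are not independent and libraries of a hairpin share its cell population.

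TP53INP1 (48 h difference 3.15), SET (2.41), MYCN (3.0), CD24 (2.25), FTH1 (-2.83), GNG12 (-4.11), CCN2 (-3.77) and CCN1 (-3.21) all passed at 48 h in the direction seen at 24 h. A difference between times was tested directly with an interaction term over the 12 hairpin libraries. Only 10 genes (0.0487%) passed, while 5341 genes (26.0%) had an unadjusted p under 0.05, and FTH1 was among the 10. TNC, the matrix protein tenascin C, held 6847, 5199 and 5531 counts with shCHD4#1 at 24 h and 3129, 2918 and 3297 with shCHD4#2. Its difference of 0.90 at 24 h was -0.08 at 48 h (interaction -0.98, limma adjusted p = 0.0476). The stress-inducible chaperone genes HSPA1A and HSPA1B, near-identical copies that can share reads, went from 0.82 and 0.77 to -0.73 and -0.76. No gene passed without the pairing, where 1930 had an unadjusted p under 0.05. Without replicate 1 the interaction was called for 1555 genes with a higher and 1154 with a lower value at 48 h, without replicate 2 for 0 and 2, and without replicate 3 for 0 and 0.

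**Figure D2:**
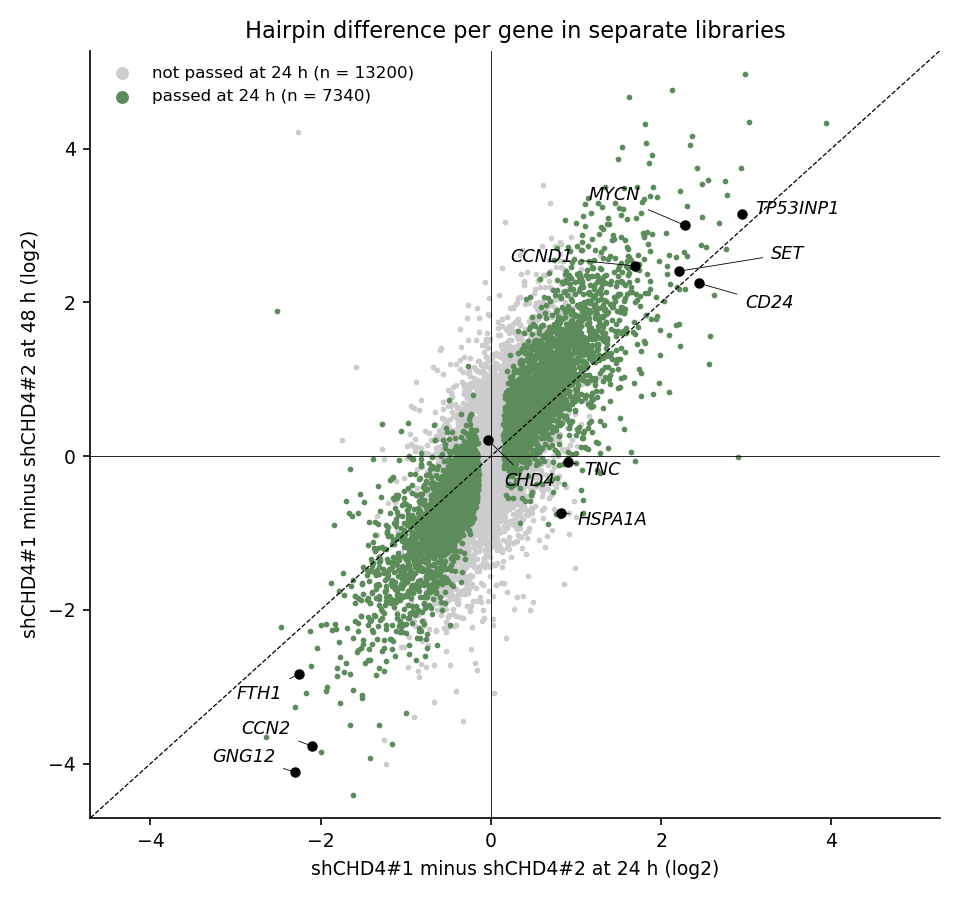
Difference between the hairpins (shCHD4#1 minus shCHD4#2, log2) of 20540 genes at 24 h (horizontal axis) and in the separate 48 h libraries (vertical axis), with genes past the 24 h test in green, and the line of equal values dashed. Most green points lie in the lower left and upper right quadrants, CHD4 lies near the centre, and TNC and HSPA1A lie at or below 0 at 48 h.

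Lists of genes by function were then read against the 17.7% of all genes that were higher and the 18.0% that were lower with shCHD4#1, and against the median of all genes, -0.01. At 48 h the shares of all genes were 25.9% and 25.2%, with a median of 0.00. Higher and lower refer to shCHD4#2 and not to shScramble. The counts in the lists rest on the pairing as the totals do, so they are given without it too, and without the pair of replicate 3. Of all genes, 4.12% were higher and 2.63% lower without the pairing. Without replicate 3 these shares were 9.65% and 8.07%. Among 15 NuRD subunits tested, 2 were higher and 5 lower with shCHD4#1, with a median of -0.08. Without the pairing the numbers were 2 and 1, and without replicate 3 they were 2 and 2. The higher subunits were GATAD2A (0.43), a scaffold protein, and RBBP4 (0.46), a histone binding subunit. The histone deacetylase HDAC1 was lower (-0.39), and MTA1, CDK2AP1 and RBBP7 were lower by 0.15 to 0.24. CHD5, a CHD4 paralogue best known in neurons (chr1:6101793-6180123, minus strand), stood out with 343, 188 and 315 counts with shCHD4#1 against 702, 499 and 757 with shCHD4#2. All its shCHD4#2 values lay above all shCHD4#1 values (difference -1.23, SE 0.10, limma adjusted p = 2.74e-05). Control libraries spread from 162 to 513 and overlapped the shCHD4#1 values and the lowest shCHD4#2 value. Of 9 CHD remodellers other than CHD4, CHD8 (0.43) and CHD6 (0.28) were higher, CHD5 and CHD9 (-0.26) were lower and 5 did not pass. Without the pairing, and also without replicate 3, 1 was higher and 1 lower.

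Genes activated by EWS-FLI1 were higher with shCHD4#1 in 17 of 40 tested members (42.5%) and lower in 4 (10.0%), with a median of 0.16. CCND1, the G1 cyclin D1 (chr11:69641087-69654474, plus strand), led them with 11799, 10615 and 10924 counts with shCHD4#1 and 4340, 2775 and 3335 with shCHD4#2. The controls ran from 7626 to 14626 and enclosed the shCHD4#1 values, and the shCHD4#2 values all lay below them (difference 1.7, SE 0.08, limma adjusted p = 1.45e-06). NR0B1, a nuclear receptor and a classical target of the fusion, held 1797, 1600 and 1620 counts against 1125, 716 and 974 (difference 0.86). The surface protein CD99 (0.41), the differentiation inhibitor ID2 (0.45) and MYC (0.31) were higher too, while PHF19, a Polycomb-associated protein, was lower (-0.85). At 48 h 24 of the 40 were higher and 3 lower, with a median of 0.42. Without the pairing 4 were higher and 1 lower at 24 h, and without the pair of replicate 3 the numbers were 12 and 1. Against shScramble at 24 h the median of this list was -0.14 with shCHD4#1 and -0.30 with shCHD4#2.

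Genes repressed by EWS-FLI1 went both ways at 24 h, with 6 of 24 higher, 9 lower and a median of -0.05. The lower members included CCN1 and CCN2, the tropomyosins TPM1 (-0.61) and TPM2 (-0.49), the glucocorticoid receptor NR3C1 (-0.80) and vimentin, VIM (-0.46). The higher members included the cell cycle inhibitor CDKN1C (1.30), thrombospondin THBS1 (0.56) and fibronectin FN1 (0.32). At 48 h 3 were higher and 14 lower, with a median of -0.79. Without the pairing 1 was higher and 3 lower at 24 h, and without replicate 3 the numbers were 3 and 5. The median at 24 h was above 0 without replicate 2 (0.08) and without replicate 3 (0.02).

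Neuronal genes were higher with shCHD4#1 in 12 of 23 members (52.2%) and lower in 2, with a median of 0.47. DCX, a microtubule protein of young neurons, held 376, 489 and 374 counts with shCHD4#1 and 229, 196 and 191 with shCHD4#2, and the control range of 331 to 503 enclosed the shCHD4#1 values. TUBB3, a neuronal tubulin, held 2539, 2289 and 2979 counts against 1750, 1109 and 1585 (difference 0.83). Without the pairing 5 were higher and 0 lower, and without replicate 3 the numbers were 7 and 1. Germline genes, of which 7 of 30 could be tested, were higher in 4 members, among them MAGEC2 (1.31) and XAGE1B (0.52), and none was lower. Without the pairing 0 were higher, and without replicate 3 2 were.

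Epithelial junction and cytolinker genes were higher in 8 of 14 members (57.1%) and lower in 1, with a median of 0.27. KRT8, a keratin of simple epithelia, held 767, 1270 and 1755 counts with shCHD4#1 and 364, 417 and 808 with shCHD4#2, so the groups overlapped although every pair went the same way (difference 1.27, SE 0.10, limma adjusted p = 3.15e-05). MISP, an actin bundling protein of the cell cortex, held 208, 442 and 424 counts against 91.7, 175 and 177 (difference 1.25). Its controls reached only 37.3, below all libraries of both hairpins. The epithelial markers summed to 788 to 1822 with shCHD4#1 and 384 to 838 with shCHD4#2, mostly KRT8, while EPCAM, CDH1 and KRT14 were under 10 in every library. Whether other cells had a part in these differences was not tested. Without the pairing 0 of the 14 were higher and 1 was lower, and without replicate 3 the numbers were 4 and 1. Against shScramble at 24 h the median of this list was 0.41 with shCHD4#1 and 0.39 with shCHD4#2. In that fit 6 members were higher and 0 lower with shCHD4#1, and 4 were higher and 4 lower with shCHD4#2.

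Genes of the mesenchyme and extracellular matrix were higher in 13 of 30 members (43.3%) and lower in 3, with a median of 0.18. The members that were higher included collagen IV (COL4A2 0.61, COL4A1 0.45), collagen V (COL5A2 0.48, COL5A1 0.28) and the gelatinase MMP2 (0.61). The inhibitor TIMP1 (-0.25) and thrombospondin THBS2 (-0.77) were lower. In the 48 h libraries 11 of the 30 were higher and 9 lower, with a median of 0.14, so most calls no longer went 1 way. Without the pairing 4 were higher and 0 lower at 24 h, and without replicate 3 the numbers were 9 and 1. Of fibroblast markers, 1 of 5 was higher (COL1A1 0.39) and 3 were lower, THY1 (-0.56) among them, and their summed counts overlapped between the hairpins (2190 to 2820 and 2421 to 3242). None of the 5 passed at 24 h without the pairing, and without replicate 3 1 was higher and 1 lower. The median of the 5 was -0.21 at 24 h and 0.79 at 48 h, when 3 were higher and 1 lower.

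Cholesterol synthesis genes were higher in 10 of 22 members (45.5%) and lower in 1, PMVK (-0.47), with a median of 0.16. The sterol oxidase MSMO1 differed by 0.38, the lanosterol synthase LSS by 0.32, and SREBF2, the transcription factor of the pathway, by 0.26. At 48 h 17 were higher and 1 lower, with a median of 0.77. Without the pairing 1 was higher and 0 lower at 24 h, and without replicate 3 the numbers were 5 and 1. Against shScramble at 24 h the median of this list was -0.13 with shCHD4#1 and -0.28 with shCHD4#2.

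Genes of ATF4 signalling and of the unfolded protein response went both ways. TRIB3, a pseudokinase induced by ATF4, held 918, 1013 and 962 counts with shCHD4#1 and 2060, 2774 and 2567 with shCHD4#2, and the controls ran from 763 to 1487. DDIT3, the stress factor CHOP, held 642, 574 and 797 counts against 1055, 1426 and 1783, with controls up to 909. For both genes the shCHD4#2 values were the highest of all 11 libraries, and the differences were -1.34 and -1.06. ATF4 itself (-0.43), ATF3 (-0.58) and the asparagine synthetase ASNS (-0.27) were lower too. The ER chaperone HSPA5 (0.47), the factor XBP1 (0.59), MANF (0.55) and DNAJB9 (0.49) were higher with shCHD4#1. In all, 8 of 26 were higher and 8 lower. Without the pairing 1 was higher and 2 lower, and without replicate 3 the numbers were 5 and 3.

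Among genes of DNA replication 10 of 32 were higher (31.2%) and 3 lower, with a median of 0.03. RRM2, a ribonucleotide reductase subunit, held 10996, 10383 and 12059 counts against 7057, 5791 and 8041, all below the controls, which began at 13043 (difference 0.69). The helicase subunit MCM7 held 20904, 21796 and 21811 counts against 15147, 11999 and 15300 (difference 0.61). Among mitosis genes 10 of 32 were higher and 2 lower, with CENPF (0.38) and BIRC5 (0.47) among the first and CDC20 (-0.37) among the second. Without the pairing 2 replication genes and 0 mitosis genes were higher and none was lower. Without replicate 3 8 and 5 were higher and 0 and 1 lower. Against shScramble at 24 h the median of the replication genes was -0.20 with shCHD4#1 and -0.29 with shCHD4#2. For the mitosis genes these medians were -0.14 and -0.21. Of 30 DNA repair genes 4 were higher and 7 lower, against 0 and 2 without the pairing and 4 and 2 without replicate 3. XRCC6, the Ku70 subunit of end joining, held 13858, 13306 and 15577 counts with shCHD4#1, 21756, 19280 and 24735 with shCHD4#2, and at least 20870 with shScramble, so that only shCHD4#1 lay wholly below the controls (difference -0.62). Its partner XRCC5 was higher (0.30).

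Of p53 targets 7 of 24 were higher and 4 lower, with a median of 0.08. MDM2, the ubiquitin ligase of p53 (0.50), the phosphatase PPM1D (0.58) and GADD45A (0.78) were higher along with TP53INP1, while PHLDA3 (-0.80) and DDB2 (-0.35) were lower. In the 48 h libraries 7 of the 24 were higher and 10 lower, with a median of -0.06. Without the pairing 3 were higher and 1 lower at 24 h, and without replicate 3 the numbers were 5 and 1. Interferon response genes went both ways, 4 of 23 up and 4 down, shares of 17.4% each that lie beside the background. IFI44L (0.74) was higher and IFI35 (-1.40) lower. Without the pairing 1 was higher and 1 lower, and without replicate 3 the numbers were 2 and 3.

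Cytosolic ribosomal protein genes were lower with shCHD4#1 in 23 of 40 members (57.5%) and higher in 1, RPLP1 (0.36), with a median of -0.16. Most of these differences were small, between -0.15 and -0.31. RPL5, which binds 5S rRNA and MDM2 (chr1:92831983-92841924, plus strand), was the exception with 20540, 19351 and 23115 counts with shCHD4#1 and 32206, 33746 and 40973 with shCHD4#2 (difference -0.76, SE 0.06, limma adjusted p = 1.47e-05). The shCHD4#1 values of RPL5 all lay below the controls, which began at 27627. Without the pairing 1 member was lower (2.5%, against 2.63% of all genes). Without replicate 3 2 were lower (5%, against 8.07% of all genes), so the high share was not seen in these settings. At 48 h 36 were lower and 1 higher. Replication-dependent histone genes were lower in 9 of 28 members and higher in 0 (limma adjusted; edgeR also 0). H2BC3, an H2B gene, held 80.6, 90.7 and 133 counts against 250, 312 and 574, with controls up to 165 (difference -1.83). Without the pairing 2 histone genes were lower, and without replicate 3 3 were. None of 15 mitochondrially encoded genes passed at 24 h, by limma or edgeR, with a median of 0.02, whereas 12 were higher at 48 h.

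HOX genes, the positional transcription factors, were lower in 12 of 30 members (40%) and higher in 5, with a median of -0.21. HOXD13, an abundant member, was higher (0.56), as were HOXA9 (0.95) and HOXA10 (0.67). HOXD8 (-0.82), HOXD11 (-0.55) and HOXC10 (-0.59) were lower, and HOXA5 (-1.42) was lower at small counts. Without the pairing 2 were higher and 2 lower, and without replicate 3 the numbers were 5 and 6. Glycolysis genes lay beside the background at 24 h, with 3 of 25 higher and 4 lower, the kinases PFKM (-0.46) and PFKL (-0.32) among the lower. Without the pairing the 24 h numbers were 0 and 1, and without replicate 3 they were 1 and 3. In the 48 h libraries 3 were higher and 12 lower, with a median of -0.19. Immediate early genes were higher at 24 h in 5 of 17, FOS (0.59) and EGR2 (1.02) among them, and lower in 3, JUN (-0.57) among them. In the 48 h libraries 1 of the 17 was higher and 10 were lower, with a median of -0.58. Striated muscle genes were higher in 3 of 11 and lower in 4 at 24 h, against 4 and 3 at 48 h. All 24 h calls of both these lists rest on the pairing, since 0 were higher and 0 lower in either list without it. Without replicate 3 the immediate early numbers were 2 and 1, and those of the muscle genes 0 and 3.

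Genes of the small RNA machinery, which process a hairpin and carry its guide, were higher in 6 of 16 and lower in 4, with a median of 0.06. DICER1, the nuclease that cuts hairpins (chr14:95086228-95158010, minus strand), held 14238, 14973 and 14241 counts with shCHD4#1 and 10142, 9107 and 8854 with shCHD4#2. The shCHD4#1 values all exceeded the controls, which ended at 11923, and the shCHD4#2 values lay inside the control range (difference 0.63, SE 0.06, limma adjusted p = 5.46e-05). AGO2 (0.41), AGO1 (0.27) and DROSHA (0.18) were higher, and XPO5, which exports hairpins from the nucleus, was lower (-0.34). Without the pairing 1 was higher and 0 lower, and without replicate 3 the numbers were 4 and 1.

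**Figure D3:**
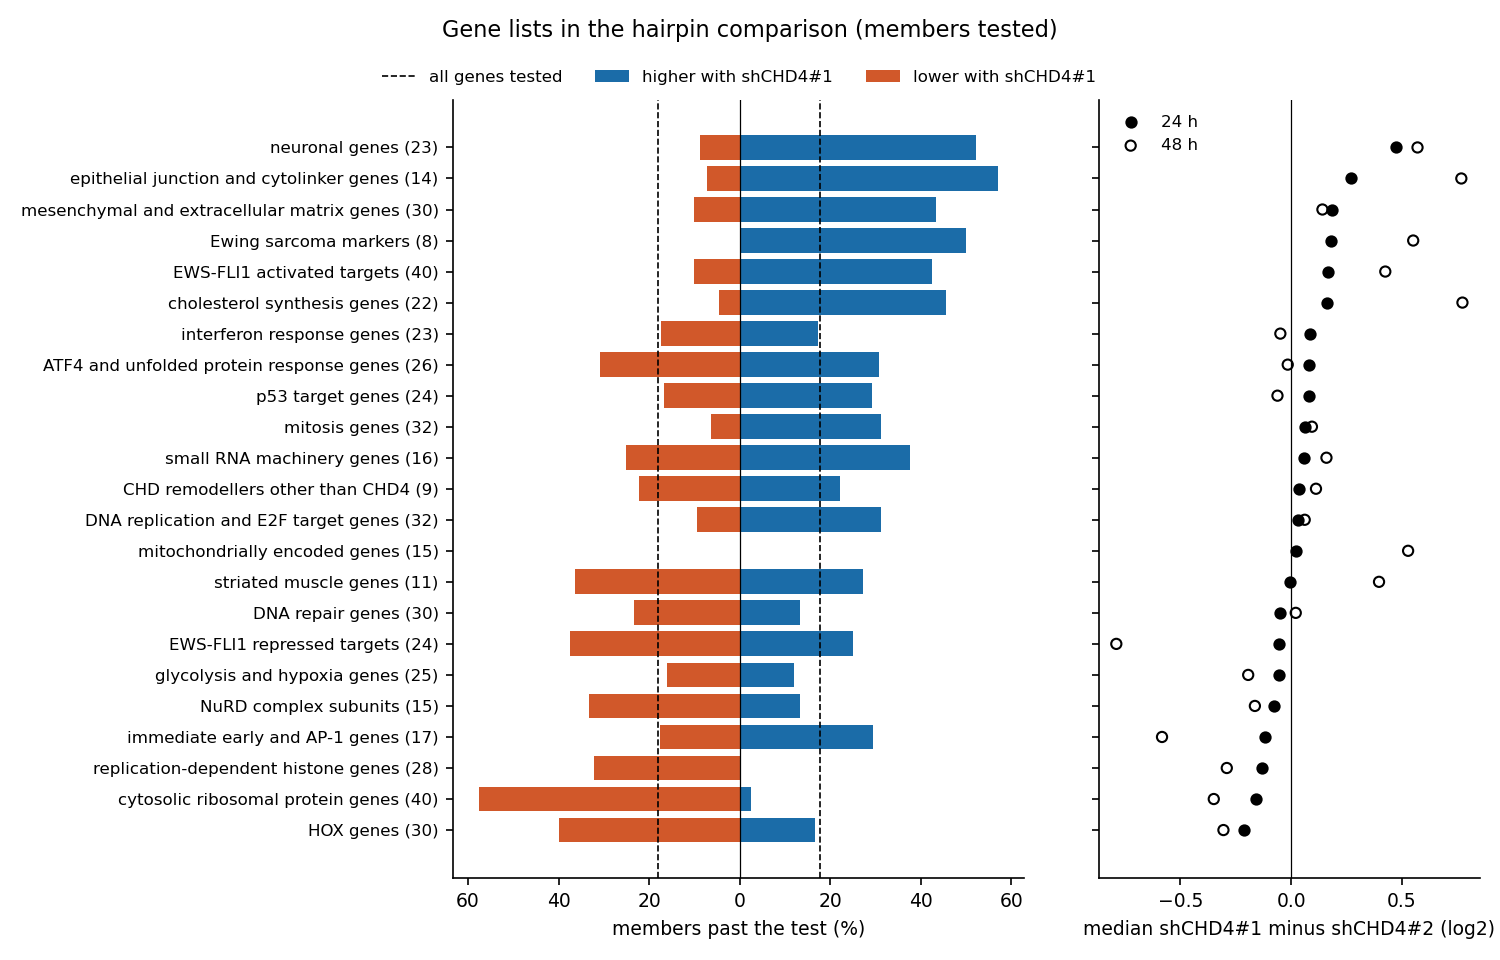
Left, percent of tested members of each gene list (number tested in brackets) past the 24 h test, higher with shCHD4#1 to the right and lower to the left, with dashed lines at the shares of all genes (17.7% and 18.0%). Right, the median difference of each list at 24 h (filled) and 48 h (open); of the lists drawn, those with at least 8 members tested, neuronal genes have the highest 24 h median (0.47) and HOX genes the lowest (-0.21).

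The 3′ UTRs of the genes that differed were searched for shared letters, a search conceived after the 24 h values were seen. Of the 16384 possible words of 7 bases, the 15643 found in at least 100 UTRs were ranked. The rank was by the mean 24 h difference of genes with the word in the 3′ UTR minus genes without it, adjusted for UTR length and GC content and divided by its standard error over genes. This ratio served only to order the words, since genes are not independent. The search covered 12084 coding genes with a mean of at least 50, and UTRs were those of 1 GENCODE 29 transcript per gene, read on the transcript's strand. The word ranked first among genes lower with shCHD4#1 was GTACCAA, found in 745 of these UTRs (6.17%), with a ratio of -14.7. The next words were TACCAAA (-9.20) and AGTACCA (-8.43), which overlap it. Among genes lower with shCHD4#2 the first was GATGATA, in 994 UTRs (8.23%), with a ratio of 5.97, closely followed by GGATGAT (5.82), which overlaps it. The sites below are shown because they lie in the 5 genes with the largest differences among those that held the word and met the conditions of the named genes, apart from genes of 1 chromosome, whose sequences are not shown. The word is in capitals, with 7 bases on each side.
GNG12: ataaactGTACCAAactaaac
FTH1: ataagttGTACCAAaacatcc
C17orf58: tcctgacGTACCAAaaagtaa
ISOC1: aaatgacGTACCAAcaatgat
TMEM179B: tgtttttGTACCAAaatatta
MEX3B: tgatgaaGATGATAgtagtgc
TTLL7: gttgcttGATGATAagattaa
NPM1: acctcctGATGATAgttaaca
CCND1: tgctacaGATGATAgaggatt
STXBP5L: tcaaagaGATGATAgcaataa

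These stretches lie in 3′ UTRs on GRCh38 at chr1:67704722-67704742 (GNG12, minus strand), chr11:61964618-61964638 (FTH1, minus), chr17:67991266-67991286 (C17orf58, minus), chr5:129113353-129113373 (ISOC1, plus) and chr11:62790207-62790227 (TMEM179B, plus). The others lie at chr15:82042737-82042757 (MEX3B, minus), chr1:83869447-83869467 (TTLL7, minus), chr5:171411060-171411080 (NPM1, plus), chr11:69651556-69651576 (CCND1, plus) and chr3:121422010-121422030 (STXBP5L, plus). A match describes the letters only and shows no binding. ISOC1, a putative hydrolase, held 460, 360 and 459 counts with shCHD4#1, 1359, 1328 and 1748 with shCHD4#2, and 1259 to 2037 with shScramble. As for FTH1, the shCHD4#1 values lay wholly below the control range. MEX3B, an RNA-binding ubiquitin ligase, held 774, 954 and 1091 counts against 179, 174 and 255, with controls from 601 to 907. TTLL7 differed by 1.95, NPM1 by 1.71, CCND1 by 1.7 and STXBP5L by 1.69.

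Genes with GTACCAA had a median 24 h difference of -0.15, against -0.01 for the 11339 genes without it in the 3′ UTR. With 1 match (677 genes) the median was -0.15, and with 2 or more matches (68 genes) it was -0.21. Genes with a match were lower with shCHD4#1 in 311 of 745 cases (41.7%), against 22.4% of genes without one. Where the word lay elsewhere in the transcript only (804 genes) the share was 29.7% and the median -0.04. Of 84 coding genes in this set that were at least 2-fold lower, 31 held the word (36.9%), and 5 of the 9 named lower genes with a 3′ UTR in the search did. For GATGATA the shares were closer to the background. Genes with a match were lower with shCHD4#2 in 324 of 994 cases (32.6%), against 20.9% of genes without one, and 26.1% where it lay elsewhere in the transcript only. Of 170 genes at least 2-fold lower with shCHD4#2, 18 held the word (10.6%, against 8.23% of all), and 2 of the 9 named ones did. The 24 h values chose both words, so these sizes describe the choice.

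The 48 h libraries were not used in that choice. There GTACCAA also ranked first of all words among genes lower with shCHD4#1. The median 48 h difference was -0.12 with 1 match and -0.13 with 2 or more, so it hardly changed with the number of matches. Of these genes 41.4% and 41.2% were lower with shCHD4#1 at 48 h. Where the word lay elsewhere in the transcript only the share was 29.6%, and without it in the transcript 29.1%. The adjusted difference between genes with and without GTACCAA in the 3′ UTR was -0.18, -0.22 and -0.22 in the 3 pairs at 24 h, which chose the word. In the 3 pairs at 48 h it was -0.18, -0.20 and -0.21. Against shScramble at 24 h the same quantity was -0.21 for shCHD4#1 and 0.00 for shCHD4#2. These values use again the 24 h hairpin libraries that chose the word, so they describe the choice. GATGATA gave 0.07, 0.07 and 0.08 in the 24 h pairs and 0.08, 0.10 and 0.10 in the 48 h pairs, and it was number 5 in its direction at 48 h. Against shScramble at 24 h, with the choosing libraries used again, its values were 0.01 for shCHD4#1 and -0.07 for shCHD4#2. At 48 h its values were smaller in size than those of GTACCAA and of the opposite sign in all 3 pairs. The opposite signs at 24 h follow from the choice of the words. Genes with GATGATA in the 3′ UTR were lower with shCHD4#2 at 48 h in 40.4% of cases. Where that word lay elsewhere in the transcript only the share was 37.7%, and without it in the transcript 26.4%. The 3′ UTR was thus hardly set apart from the rest of the transcript for GATGATA at 48 h.

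The CHD4 transcript held GTACCAA once and GATGATA at 2 places, all in its coding sequence. These stretches are shown because CHD4 is the transcript that both hairpins were made against.
CHD4, chr12:6601437-6601457: gagttcaGTACCAAtaacccc
CHD4, chr12:6587756-6587776: ggagcttGATGATAtcctcaa
CHD4, chr12:6587502-6587522: ccactacGATGATAaggccat
All are on the minus strand. A match anywhere in the transcript was found in 12.8% of the 12084 genes for GTACCAA and in 18.7% for GATGATA. These shares are over transcripts of all lengths and were not adjusted for length. They are therefore no chance level for a transcript of the length of CHD4. None of 2545 mature human miRNAs of RefSeq had a seed that pairs with either word over bases 2 to 8. The sequences of the hairpins were not used here, so whether either word pairs with a guide was not tested.

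**Figure D4:**
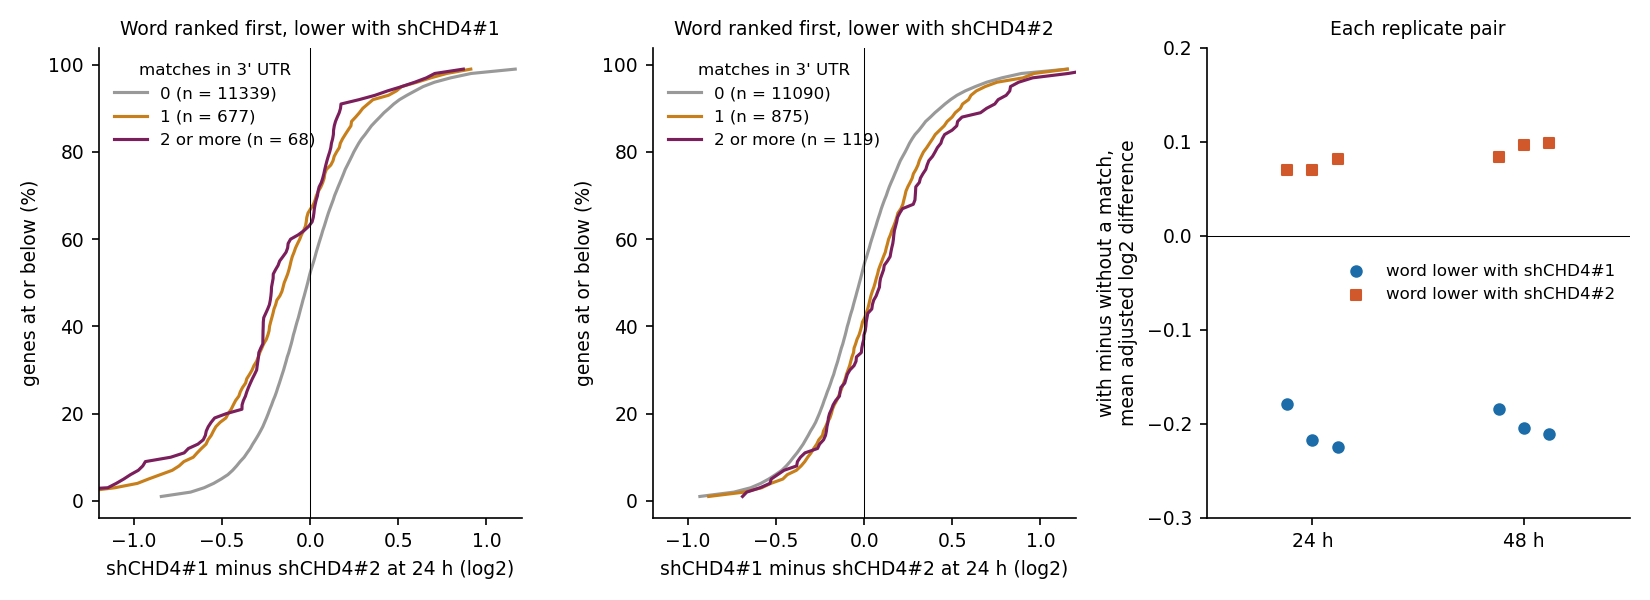
Left and centre, cumulative share of genes (percent) by difference between the hairpins at 24 h (log2), split by number of matches in the 3′ UTR, for the word ranked first among genes lower with shCHD4#1 and that among genes lower with shCHD4#2. Right, mean adjusted difference of genes with the word minus genes without it in each of 3 replicate pairs at 24 h and 48 h; the circles lie between -0.22 and -0.18 and the squares between 0.07 and 0.10.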

How the data were processed

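RNA of SK-N-MC cultures was sequenced as stranded total RNA libraries with paired ends, per the labels' protocols. The submitters' processing notes name DESeq2 1.34.0, featureCounts 1.6.0, HISAT2 2.1.0, SAMtools 1.7, FastQC 0.11.7 and the build GRCh38. The counting parameters and gene models, and whether strand was used, were not given in the sources used here, so antisense genes, pseudogenes and near-identical copies are uncertain. The authors' deposited values are a signal for 35488 genes, normalised counts per the file labels. Dividing a library by the value of 1 read gave whole numbers, within a tolerance of 0.02, for 100% of its values, so they are reads scaled by 1 factor per library, and the reads could be recovered.

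Normalised counts plus a pseudocount of 1 were put on a log2 scale, and the hairpins were compared on it by limma-trend (R 4.3.3 with limma 3.58.1), on 6 libraries with the replicate number as a block, two-sided, called at an adjusted p under 0.05. This scale understates the change of low genes. The pairing followed the replicate numbers by design. Deviations of same-numbered libraries from their group means correlated with r of 0.467, 0.359 and 0.754 for replicates 1, 2 and 3 at 24 h. At 48 h these were 0.434, 0.274 and 0.644. Between libraries of different numbers the highest r was 0.225 at 24 h, for replicates 1 and 2, and -0.033 at 48 h. The labels do not say what a number marks. Replicates of a hairpin differed by more than counting noise (17.7 to 61.5 chi-square units per gene). edgeR 4.0.16 and DESeq2 1.42.0 on recovered reads, other filters, pseudocounts, scalings, sample sets and each pair left out were alternatives.

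The hairpin comparison, the gene lists and the tests were chosen with earlier results of these data known. Named genes are CHD4, the 12 largest differences in each direction under the conditions in the text, and from each list the 3 members with the smallest adjusted p, or fewer where fewer passed. Other genes, TNC's time course, HSPA1A, HSPA1B and the members named beside the list counts included, were chosen after their values were seen. A Y-linked transcript among the 12 is not described. Some genes that the rule names are not reported here. Positions are those of GENCODE 29, which held 20116 of the 20540 genes tested. The 48 h shScramble samples carry the genotype label CHD4 knockdown, against their titles, and were used only for the CHD4 reference level. The authors' comparison tables were not used.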

Additional observations from a re-analysis of the deposited data

Results flagged for a closer look

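The hairpin difference itself changed between 24 and 48 h in 10 genes by the interaction test (limma adjusted p from 0.0026 to 0.048). Its change, 48 h minus 24 h on the log2 scale, was -1.56 for HSPA1A and -1.52 for HSPA1B, which went from 0.82 and 0.77 to -0.73 and -0.76. It was -0.98 for TNC and -1.07 for RHOB, a small GTPase whose difference went from -0.14 to -1.21. FTH1 changed by -0.58, from -2.25 to -2.83, so the gap between the hairpins widened. SEMA6A, an axon guidance ligand, changed by 0.90 (from 0.34 to 1.24) and CCDC171 by 0.75 (from 0.35 to 1.10). The uncertain transcripts RN7SL4P, AC016074.2 and AC009435.1 changed by -0.74, 1.43 and 1.29.

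In the control group of 5 libraries, 1 library stood apart for 3 of the 92 named genes tested, where chance sets 1 in 20 groups apart. The highest shScramble value at 24 h was 4410 for IFI44L, against 2966 for the next, 939 for DDIT4, against 709, and 7558 for CD99, against 6604. The control values of these 3 genes do not enter the comparison of the hairpins.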

How the results depend on the processing

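Counts are given as genes higher and genes lower with shCHD4#1. With no replicate block the 24 h test called 846 and 541, and 270 and 124 at 2-fold. All 4 groups in 1 fit without the block gave 1182 and 837 (338 and 184), and both hairpins with shScramble and library kind as a term 2343 and 2174. With no low-value filter 0 and 1 were called (0 and 1 at 2-fold), while 9667 had an unadjusted p under 0.05. The prior degrees of freedom then were 1.41 in place of 8.16, and a robust prior, an alternative added after seeing the data, called 2912 and 2836. A mean of at least 50 left 235 and 139 at 2-fold, and DESeq2 345 and 182. Leaving out 1 pair gave 1983 to 3780 and 1657 to 3936, and 380 to 761 and 215 to 485 at 2-fold. The lowest totals were those without replicate 3.

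At 48 h no block gave 3534 and 3437, and leaving out 1 pair 3119 to 5840 and 2861 to 5890. The change between times was called for 0 and 0 genes with no block, and for 0 to 1555 and 0 to 1154 with 1 pair left out. Against shScramble without library kind shCHD4#1 gave 913 and 985 and shCHD4#2 648 and 1156. With 1 library of the hairpin left out the ranges were 1087 to 1802 and 1206 to 2384 for shCHD4#1, and 990 to 1793 and 1608 to 2566 for shCHD4#2. The cause was not tested.

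Of 91 named differences, 78 kept their call wherever they had an adjusted p among 13 settings. These 13 leave out no filter and the 2 fits of 24 h libraries without the block or library kind. A mean of at least 50 covered 86 of the 91, and DESeq2 covered 89. No block ended 40 calls, 4 groups 33 and no filter 90. These settings leave the difference itself as it was, so no sign could reverse in them, and none reversed in the others. The CHD4 difference stayed between -0.06 and -0.00 and did not pass in any setting. The word GATGATA differed by 0.10 with no adjustment for length and GC, against 0.07, and GTACCAA moved within the spread of its pairs. Having 3 pairs, an unknown relation between cultures, and an unknown strand setting all limit these results.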
